A study of Mus musculus with 12 samples.

Results

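The genes described here are 1655 mouse genes that carry a noncoding transcript and only a provisional name. Every RefSeq transcript listed for such a gene has an identifier that starts with NR_, the prefix of noncoding RNA, and the symbol either ends in Rik, for a RIKEN cDNA clone, or is Gm followed by digits, for a predicted gene model. A gene was represented by its transcript with the most calls, and had to have at least 500 calls in each of 12 libraries; a call is a read of a cytosine outside the CG context. Of 1899 genes named in this way, 244 had fewer calls in at least 1 library and were not analysed. The 1655 genes were 8.35% of the 19826 genes with that many calls, and comprised 1112 Rik and 543 Gm genes. The RefSeq table typed 1552 of them as long noncoding RNA, 99 as transcribed pseudogenes, 3 as protein-coding and 1 as miscellaneous RNA.

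Methylated cytosine outside CG, written mCH, builds up in the genome of mouse neurons after birth, is laid down mainly by the DNA methyltransferase DNMT3A and lies mostly at CA dinucleotides. Across a transcribed region, mCH is known to go with lower expression. The microRNAs of the miR-29 family are known to repress Dnmt3a. Long noncoding RNAs are transcripts without a recognised open reading frame that are often weakly and tissue-specifically transcribed, and several RIKEN clone series, told by the leading digits of the symbol, came from adult testis cDNA libraries.

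The libraries were whole-genome bisulfite sequencing of bulk cortex of mice on the C57BL/6 background. At postnatal day 40 (P40), 4 wild-type libraries and 4 libraries of mice labelled miR29 KO, a knockout of miR-29, were compared. At 4 months, 2 wild-type libraries and 2 libraries of mice labelled Dnmt3a mi5, whose titles call them a miR29 mutant of DNMT3A, were compared. The labels give neither which miR-29 genes the knockout lacks nor in which cells, and they give no sex and no further description of the mi5 allele. Since cortex is a mixture, a change in the share of neurons and a change in methylation per cell cannot be told apart.

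Total calls ranged from 605997533 to 732985426 per library at P40 and from 399563492 to 474003465 at 4 months. The members held a median of 4231 to 8601 calls per library. A member with 8601 calls in wild-type library 1 at P40 and a level of 1.65% had a 95% Wilson interval of 1.40% to 1.94%, which covers counting error only. The miR-29 genes together held 6 to 69 calls in the 4 knockout libraries and 121 to 244 in the 4 wild-type libraries at P40 (p = 0.0286, exact permutation over libraries, two-sided, which is the smallest that 4 against 4 allows). Coverage of Y-linked genes was low in 1 library of each group. Since this coverage differed within each group, the libraries of a group did not all come from a single animal. The labels do not say whether all replicates are separate animals. Every p-value below therefore refers to the spread among the libraries, which may be partly technical.

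A330023F24Rik (NR_015566) was singled out after its values were seen, because its span overlaps the microRNA genes Mir29b-2 and Mir29c in the RefSeq table. The 3p arms of these microRNAs and of miR-29a share the seed, bases 2 to 8, which pairs with target transcripts and is shown in capitals (RefSeq, GRCm38.p6, 5′ to 3′; chr6:31062673-31062694 and chr1:195037091-195037113, minus and plus strand, for the upper pair, and chr1:195037600-195037621, plus strand, for the last).
mmu-miR-29a-3p: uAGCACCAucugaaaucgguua
mmu-miR-29b-3p: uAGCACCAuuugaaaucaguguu
mmu-miR-29c-3p: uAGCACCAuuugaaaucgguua
All 3 carried the seed AGCACCA. Mir29c held 28, 25, 40 and 60 calls in wild-type libraries 1 to 4 at P40 and 13, 15, 22 and 0 in knockout libraries 1 to 4, with no overlap between the groups. Mir29b-2 held 115, 34, 30 and 77 calls in the wild type and 0, 32, 3 and 6 in the knockout, where knockout library 2 lay inside the wild-type range. At 4 months Mir29b-2 held 79 and 63 calls in the wild type and 25 and 18 in Dnmt3a mi5, and the miR-29 genes together 151 to 200 and 106 to 129, also without overlap, in libraries of lower depth. Mir29c held 24 and 35 calls there in the wild type and 45 and 34 in Dnmt3a mi5. At P40 the host gene itself held 23.3, 23.2, 21.0 and 22.6 calls per 1000000 calls in the wild type and 22.6, 22.6, 20.8 and 22.5 in the knockout.

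The mCH level of A330023F24Rik was below the 5th percentile of the members (0.538% in the wild type at P40) and did not pass the test in either mutant. It was 0.333%, 0.356%, 0.424% and 0.430% in the wild type at P40 and 0.454%, 0.401%, 0.401% and 0.455% in the knockout, so the groups overlapped. The log2 odds ratio was 0.17 with a standard error of 0.24 (adjusted p = 0.539, limma-moderated quasi-binomial model). At 4 months the level was 0.641% and 0.617% in the wild type and 0.745% and 0.583% in Dnmt3a mi5 (adjusted p = 0.876).

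Promoter windows of the members at either end of the range show the sequence feature taken up below, the CG dinucleotide, in capitals (RefSeq, GRCm38.p6, 250 bases before to 50 after the start of the gene, on its own strand). The lowest level in the wild type at P40 was that of 5031425E22Rik (NR_040469), which overlaps Kmt2e. The window of 5031425E22Rik lies at chr5:23433287-23433586 on the minus strand and holds 24 CG. 4930507D05Rik (NR_027926), which overlaps the RNA helicase gene Supv3l1 on the opposite strand, was next lowest, with its window at chr10:62448910-62449209 on the plus strand and 5 CG. The highest levels were those of A930004D18Rik (NR_028376), with its window at chr2:18037692-18037991 on the minus strand and 3 CG, and 1700108J01Rik (NR_015532), which overlaps Clybl on the opposite strand, with its window at chr14:122233589-122233888 on the minus strand and 11 CG.
5031425E22Rik: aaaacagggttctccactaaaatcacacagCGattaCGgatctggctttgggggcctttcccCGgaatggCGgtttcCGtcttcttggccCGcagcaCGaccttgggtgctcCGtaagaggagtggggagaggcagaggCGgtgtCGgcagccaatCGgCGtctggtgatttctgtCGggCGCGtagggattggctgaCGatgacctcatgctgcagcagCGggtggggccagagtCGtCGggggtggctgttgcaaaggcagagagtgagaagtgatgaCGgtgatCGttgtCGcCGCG
4930507D05Rik: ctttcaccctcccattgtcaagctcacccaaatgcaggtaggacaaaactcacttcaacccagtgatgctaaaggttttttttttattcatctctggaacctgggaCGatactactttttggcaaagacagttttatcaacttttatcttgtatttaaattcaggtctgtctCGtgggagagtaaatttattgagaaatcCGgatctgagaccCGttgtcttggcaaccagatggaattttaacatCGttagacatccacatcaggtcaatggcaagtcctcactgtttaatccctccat
A930004D18Rik: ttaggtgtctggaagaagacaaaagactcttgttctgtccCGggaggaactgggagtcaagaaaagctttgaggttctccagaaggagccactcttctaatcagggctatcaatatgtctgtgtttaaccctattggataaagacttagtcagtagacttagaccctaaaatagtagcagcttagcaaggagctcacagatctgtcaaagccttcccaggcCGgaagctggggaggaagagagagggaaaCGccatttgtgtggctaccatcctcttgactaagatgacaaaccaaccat
1700108J01Rik: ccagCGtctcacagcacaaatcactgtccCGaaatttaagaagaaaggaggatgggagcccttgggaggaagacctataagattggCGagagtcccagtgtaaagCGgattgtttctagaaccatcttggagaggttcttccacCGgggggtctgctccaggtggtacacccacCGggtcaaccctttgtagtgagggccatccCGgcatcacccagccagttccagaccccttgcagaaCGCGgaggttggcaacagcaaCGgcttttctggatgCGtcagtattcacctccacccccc
The CG count of the window did not order these 4 genes by level. 5031425E22Rik stood at 0.243%, 0.122%, 0.0678% and 0.111% in wild-type libraries 1 to 4 at P40, and A930004D18Rik at 4.80%, 5.35%, 4.43% and 4.60%.

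The noncoding genes carried more mCH than protein-coding genes with similar numbers of calls, in every library. The comparison set was 17014 genes with only NM_ transcripts, the prefix of protein-coding RNA, sorted into 5 classes with the same limits of mean calls as 5 equal classes of members; its reference level is the mean of the 5 class medians. At P40 the median member stood at 1.66%, 2.07%, 1.94% and 1.70% in wild-type libraries 1 to 4, and the NM reference at 1.06%, 1.25%, 1.18% and 1.07%. In knockout libraries 1 to 4 the median member stood at 3.44%, 3.16%, 2.95% and 2.37% and the NM reference at 2.03%, 1.89%, 1.76% and 1.40%. At 4 months the median member stood at 1.66% and 1.68% in the wild type and at 3.13% and 3.05% in Dnmt3a mi5, against 1.08% and 1.06% and then 1.90% and 1.88% for the reference. Knockout library 4 was the lowest of its group, and it still lay above the highest wild-type library.

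The ratio of the median member to the NM reference was 1.62 ± 0.0440 in the wild type at P40 (SD, n = 4) and 1.68 ± 0.00864 in the knockout (SD, n = 4). Over all 12 libraries the ratio ran from 1.53 to 1.69, and 79.2% to 80.6% of members lay above the reference. No test was made, since the members were chosen with earlier results of these data known. With calls pooled over genes in place of the median the ratio was 1.40 in the wild type at P40, and for members that overlap no NM gene it was 1.70.

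**Figure D1:**
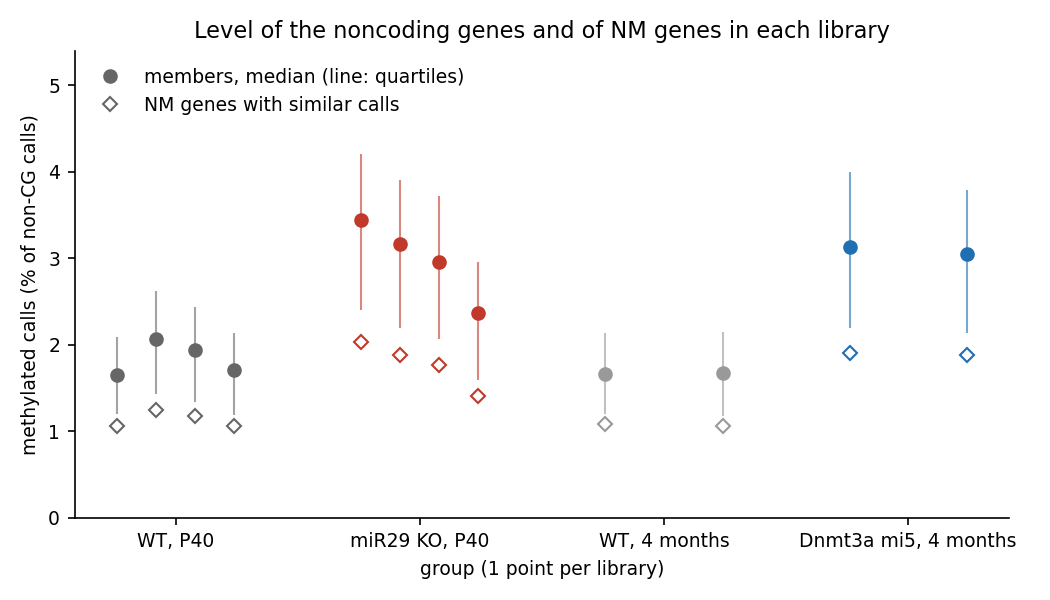
Each filled point is the median mCH level (percent of non-CG calls that were methylated) of the 1655 noncoding genes in 1 library, with a line from the lower to the upper quartile over genes, and each open diamond is the NM reference of the same library. The filled points lie above the diamonds in all 12 libraries, at ratios from 1.53 to 1.69, and both are higher in the mutant groups.

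A provisional name alone did not go with a high level. The 551 NM genes that also have Rik or Gm symbols had a median of 1.28% in the wild type at P40, close to the 1.26% of all 17161 NM genes. The 432 noncoding genes with other names lay between them and the members, at 1.52%, and the members' median over genes was 1.86%. In the knockout the same medians were 2.11%, 1.999%, 2.36% and 2.996%. Members and NM genes overlapped widely all the same. In the wild type at P40 the middle 50% of members ran from 1.31% to 2.31% and that of NM genes from 0.737% to 1.88%, and the highest NM gene, at 6.55%, lay above the highest member, at 4.80%.

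The difference in level between members and NM genes was smallest among genes with the most calls. In the 5 classes of mean calls, from fewest to most, the members' medians in the wild type at P40 were 1.68%, 1.92%, 1.84%, 1.92% and 1.92%. NM genes climbed across the same classes, from 0.868% through 1.01%, 1.11% and 1.19% to 1.56%. Across genes, Spearman's rho between mean calls and level was 0.0954 over 1655 members and 0.298 over 17161 NM genes; calls grow with the length of a gene and its coverage, and genes are not independent replicates.

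**Figure D2:**
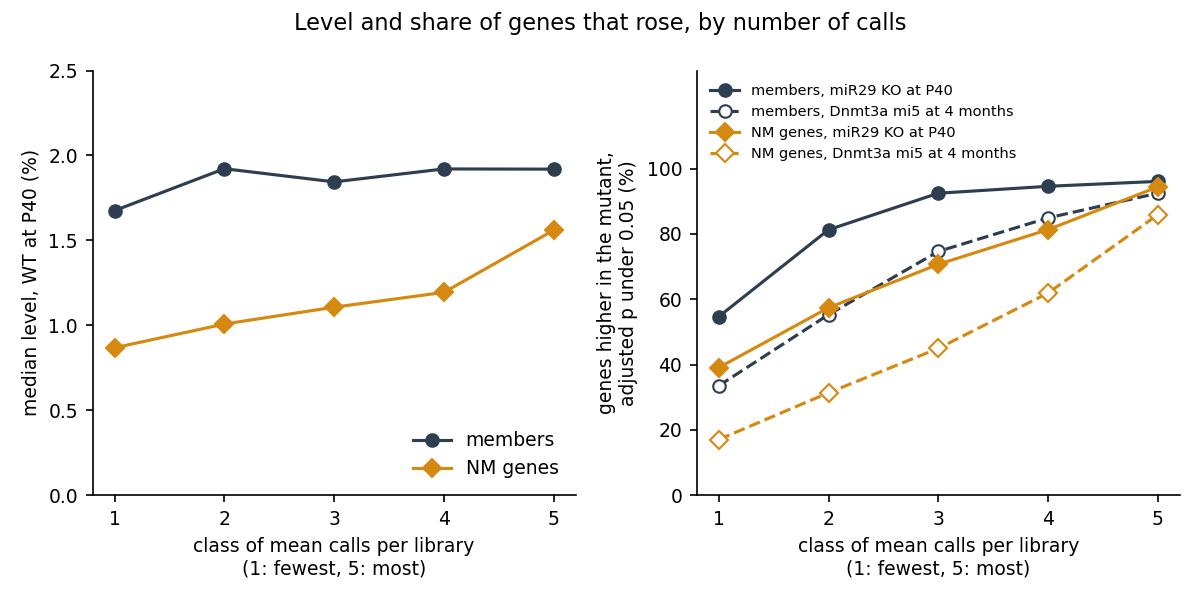
The left panel plots the median level in the wild type at P40 and the right panel the percentage of genes that passed the test as higher in the mutant, against 5 classes of mean calls per library, for noncoding members (dark) and NM genes (orange). The members' level stays between 1.68% and 1.92% while that of NM genes climbs from 0.868% to 1.56%, and the percentage that rose climbs with calls in both sets and both comparisons.

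The name class made little difference to the level. The 571 Rik members with a testis library prefix had a median of 1.90% in the wild type at P40. The 541 other Rik members had 1.83% and the 543 Gm members 1.85%. The RefSeq type separated the members more: the 1552 long noncoding RNA genes had a median of 1.89% and the 99 transcribed pseudogenes 1.32%, with a median of 3295 calls against 7016. Pseudogenes share sequence with their parent genes, so their calls are uncertain.

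Members that overlap a protein-coding gene had lower levels than those that do not. The 558 members whose span overlaps an NM gene had a median of 1.64% in the wild type at P40 and 2.54% in the knockout, and the 1097 that overlap none had 1.95% and 3.17%. Among the former, the 309 on the opposite strand only had 1.62% and the 23 on the same strand only 1.60%; for the rest the strand could not be read or was mixed. Calls in an overlap may enter both genes' values, since no source used here says that calls were divided by strand. Further, 44 members overlap another member.

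The level of a member followed that of the nearest NM gene, and lay above it where the pair did not overlap. Over 1582 members whose nearest NM gene was also tested, Spearman's rho between both levels in the wild type at P40 was 0.49. It was 0.71 over 545 overlapping pairs, which may share calls, and 0.38 over 1037 pairs that do not overlap. In the latter, 681 members (65.7%) stood above their neighbour, with medians of 1.96% and 1.55%. In overlapping pairs, 281 members (51.6%) did, with medians of 1.64% and 1.60%. In the knockout, 66.2% of the members without overlap stood above the neighbour, and at 4 months 61.0% did in the wild type and 63.0% in Dnmt3a mi5. Pairs in one region share coverage and base composition, so these are descriptions.

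The members' promoter windows held fewer CG dinucleotides than those of protein-coding genes. RefSeq gave a window of 300 bases for 1259 members, with a median of 5 CG, and for 13640 NM genes, with a median of 17. The motif searched was CG, which reads the same on both strands; 94.8% of the members' windows and 94.6% of all promoter windows in the table held it, with a median of 7 CG over all. Where the window had more than 20 CG, as in CG islands, the level of the gene was lower: the 186 such members had a median of 1.21% in the wild type at P40. The 346 members with 0 to 2 CG had 1.88%, the 327 with more than 2 and up to 5 had 2.07%, the 245 with up to 10 had 2.04%, and the 155 with up to 20 had 1.70%.

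Members lay above NM genes within each of these classes. In the same order of CG count from fewest to most, NM genes had medians of 1.38%, 1.69%, 1.60%, 1.13% and 1.01%, so the gap was smallest above 20 CG. Spearman's rho between CG count and level was -0.20 over members and -0.19 over NM genes. The window counts only the start of a gene, whereas the level covers calls over the gene, and a CG count says nothing of which factor binds there.

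**Figure D3:**
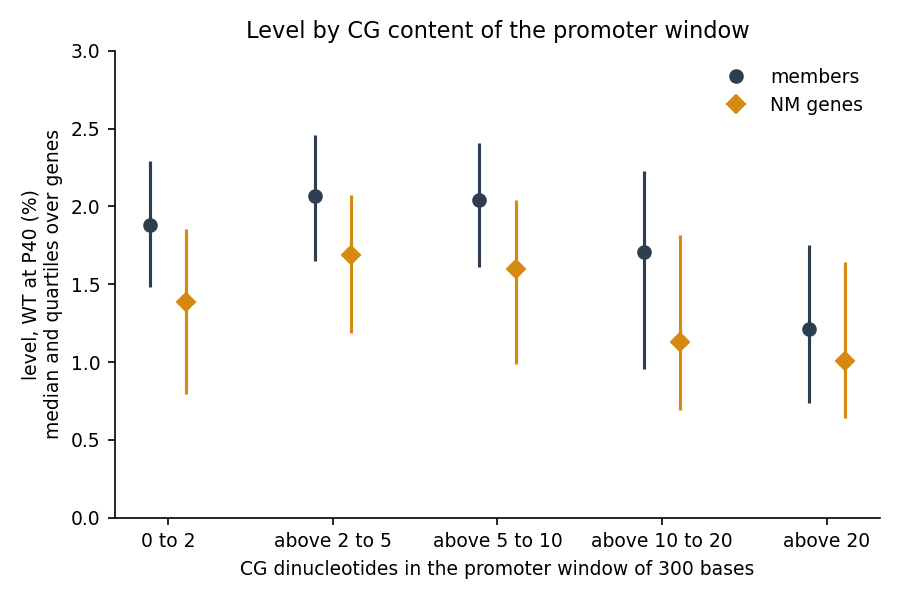
Points are median mCH levels in the wild type at P40 and lines run from the lower to the upper quartile over genes, for members (dark) and NM genes (orange) grouped by the number of CG dinucleotides in the promoter window. Members lie above NM genes in all 5 classes, and both sets are lowest above 20 CG, at 1.21% and 1.01%.

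The 5 members of highest level in the wild type at P40 were A930004D18Rik at 4.80% ± 0.401, 1700108J01Rik at 4.49% ± 0.554, Gm17762 at 4.44% ± 0.771, Gm12530 at 4.43% ± 0.532 and Gm5420 at 4.04% ± 0.662 (SD, n = 4 each). The spreads of neighbours in this order overlap. A930004D18Rik and Gm17762 both have Skida1 as their nearest NM gene. Their libraries at 4 months stood higher than those at P40 within the wild type: A930004D18Rik at 6.27% and 6.43%, and Gm17762 at 6.97% and 7.37% against 4.12%, 4.58%, 5.44% and 3.63% at P40. The median member did not, at 1.66% and 1.68% against 1.66% to 2.07%. Age was not tested, because the ages belong to separate sets of mice.

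At the low end stood 5031425E22Rik at 0.136% ± 0.0752, 4930507D05Rik at 0.216% ± 0.0909, Gm5886 at 0.249% ± 0.0845, Gm6093 at 0.263% ± 0.0614 and C130021I20Rik at 0.264% ± 0.0811 (SD, n = 4 each). These had means of 1072.5 to 3716 calls per library, so their levels rest on few methylated calls. None of these 5 passed the test in either comparison, with adjusted p from 0.152 to 0.913 in the knockout and from 0.212 to 0.896 in Dnmt3a mi5 (limma-moderated model).

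In the miR29 KO at P40, mCH rose across the noncoding genes and fell in none that passed the test. Of 1655 members, 1387 rose (83.8%) and 0 fell, against 76.4% and 0.0504% of all 19826 genes. On the log2 odds scale the median change was 0.69 over members and 0.65 over all genes, and 1622 members had a value above 0. In levels, the median member gained 1.11 percentage points and the median gene 0.749. The test was a quasi-binomial model of the calls of all 12 libraries, moderated with limma and adjusted over all genes with a threshold of 0.05. Without adjustment 1419 members and 15533 of all 19826 genes had p under 0.05. In 1020 members (61.6%) all 4 knockout libraries lay above all 4 wild-type libraries, against 57.1% of all genes. All lay below in 0 members and in 10 of all 19826 genes.

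The number of calls moved with the share of members that rose. From the class with the fewest calls to that with the most, 181, 269, 306, 313 and 318 of 331 members rose in the knockout, or 54.7% to 96.1%, beside 39.1% to 94.4% of NM genes in the same classes. The mean share over the classes was 68.6% in NM genes. The 268 members that did not pass the test had a median level of 0.836% in the wild type and 2456 calls, and the 1387 that rose had 1.96% and 8329 calls. The part of level and calls in this difference was not tested.

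Relative to the level of the median gene in each library, few members stood apart in the knockout. With each library centred on its median gene, 14 members passed as higher and 19 as lower, beside 200 and 711 of all genes. By name class, beside 76.4% of all genes, 510 of 571 testis-prefix Rik members rose (89.3%), 430 of 541 other Rik members (79.5%) and 447 of 543 Gm members (82.3%), with median calls of 7616, 6683 and 6112. Of the transcribed pseudogenes, 59 of 99 rose (59.6%).

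The 8 members of largest log2 odds ratio in the knockout were picked among those past the threshold whose libraries did not overlap and whose wild-type level was at least 0.5%, so their sizes were picked for being large. They were 1700054K19Rik (1.36), 1700012H19Rik (1.31), Gm2109 (1.16), Gm5478 (1.16), Gm12348 (1.16), Gm3002 (1.15), 4933401H06Rik (1.14) and 4933406D12Rik (1.14), all on the log2 odds scale. 1700012H19Rik (NR_130164), whose nearest NM gene is Sox9, a transcription factor gene of glia and cartilage, stood at 1.98%, 3.07%, 2.33% and 2.17% in the wild type and at 6.71%, 6.30%, 5.82% and 3.85% in the knockout. All 4 knockout libraries lay above the wild type, with a ratio of means of 2.38, a standard error of 0.20 on the log2 odds ratio, and an adjusted p of 5.75e-05. Knockout library 4 was the lowest of its group here, as it was for the median member.

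4933401H06Rik (NR_040540), opposite to the zinc transporter gene Slc39a8, had more calls, with a mean of 4006 per library. It stood at 1.81%, 1.70%, 2.55% and 1.74% in the wild type and at 4.76%, 4.85%, 4.13% and 3.04% in the knockout, without overlap (standard error 0.18, adjusted p = 5.75e-05). Gm3002 (NR_033388) stood at 1.69%, 1.63%, 2.12% and 1.16% in the wild type and 4.35%, 3.72%, 3.45% and 2.68% in the knockout (standard error 0.16, adjusted p = 5.75e-05). Its nearest NM gene, Gm5796, is itself a gene model, and calls in families of near-identical copies are uncertain. The other 5 passed with adjusted p from 0.000121 to 0.00353, on means of 948 to 3201 calls per library. RefSeq typed Gm3002 and Gm5478 as transcribed pseudogenes. No member that fell passed the test.

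In the Dnmt3a mi5 cortex at 4 months the members rose as well. Of 1655, 1128 rose (68.2%) and 0 fell, against 58.8% and 0% of all genes. Without adjustment 1214 members and 12854 of all 19826 genes had p under 0.05. The median change was 0.87 over members and 0.83 over all genes on the log2 odds scale, and the median gain was 1.36 percentage points against 0.959. Both mutant libraries lay above both wild-type libraries in 1492 members (90.2%), against 86.2% of all genes. They lay below them in 10 members and in 204 of all 19826 genes. The comparison rests on 2 libraries against 2, with a spread shared with the P40 groups. Without wild-type library 1 or 2 the members' median log2 odds ratio was 0.87 or 0.88. Without mi5 library 1 or 2 it was 0.85 or 0.90. Each of these fits leaves 1 library in a group, and fewer members passed in each. How many of all genes passed in them is not given here. Centred on the median gene, 0 members passed as higher and 1 as lower, beside 0 and 7 of all genes.

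Among NM genes with similar calls 48.2% rose, as the mean over the 5 classes of calls. By class the share among members ran from 33.5% to 92.4% and among NM genes from 17.1% to 85.9%. Beside 58.8% of all genes, 417 of 571 testis-prefix Rik members rose (73.0%), and 352 of 541 other Rik members (65.1%). Among Gm members 359 of 543 rose (66.1%), and among transcribed pseudogenes 42 of 99 (42.4%). In this order, the sets had median calls of 7616, 6683, 6112 and 3295. Members that overlap no NM gene rose in 784 of 1097 cases (71.5%) and those that overlap one in 344 of 558 (61.6%).

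The 8 largest log2 odds ratios in Dnmt3a mi5 under the same rule belonged to Gm2109 (1.92), 4931406H21Rik (1.87), Gm3428 (1.85), 2310015D24Rik (1.82), 1700028J19Rik (1.78), Gm5477 (1.77), 1700016P04Rik (1.67) and 4930562F07Rik (1.67). 2310015D24Rik (NR_037997), near the poly(A) ribonuclease gene Parn, stood at 1.52% and 1.81% in the wild type and 5.21% and 5.92% in the mutant, a ratio of means of 3.35 (standard error of the log2 odds ratio 0.36, adjusted p = 0.00303). 4930562F07Rik (NR_038031) stood at 1.61% and 1.94% in the wild type and 6.09% and 4.86% in the mutant (standard error 0.29, adjusted p = 0.00303). Both mutant libraries lay above the wild type in each, which the rule required. Of the 8, RefSeq typed Gm5477 as a transcribed pseudogene. Gm3428, Gm2109, Gm5477 and 1700016P04Rik had means of 712, 948, 1104 and 1363 calls per library. Their low wild-type levels thus rest on few methylated calls. The others had means of 2093 to 3737 calls.

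4931406H21Rik (NR_033492), on the same strand as Zmiz1, stood at 1.75% and 1.07% in the wild type and 5.10% and 4.64% in the mutant (adjusted p = 0.00303, limma-moderated model). Gm2109 (NR_046066), named in both comparisons, stood at 0.770% and 0.898% in the wild type and 3.15% and 2.86% in the mutant. In the knockout at P40 it had stood at 2.86%, 2.06%, 1.97% and 2.39% against 1.13%, 1.67%, 0.464% and 1.26%. Of the 8, Gm2109, Gm3428, Gm5477 and 1700016P04Rik no longer passed without wild-type library 1, with adjusted p of 0.103, 0.111, 0.0652 and 0.0547. Gm3428 and 1700016P04Rik also missed it without wild-type library 2 (0.149 and 0.0604), and Gm3428 without mi5 library 1 (0.0710).

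The 2 comparisons share no library. In 1091 members (65.9%, against 56.8% of all genes) mCH rose in both, in 296 (17.9%, against 19.7%) only the knockout passed, in 37 (2.24%, against 2.02%) only Dnmt3a mi5, and in 231 (13.96%, against 21.5%) neither. A log2 odds ratio above 0 in both was found in 1588 members (96.0%), against 93.1% of all genes. A test of the difference between mutants called 0 members in either direction, and 0% of all genes either way, with the limma-moderated model. Without adjustment 39 members and 289 genes had p under 0.05. The median of the difference, Dnmt3a mi5 minus knockout on the log2 odds scale, was 0.18 over members and 0.18 over all genes. The mutants differ in age as well as genotype, so both cannot be told apart.

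**Figure D4:**
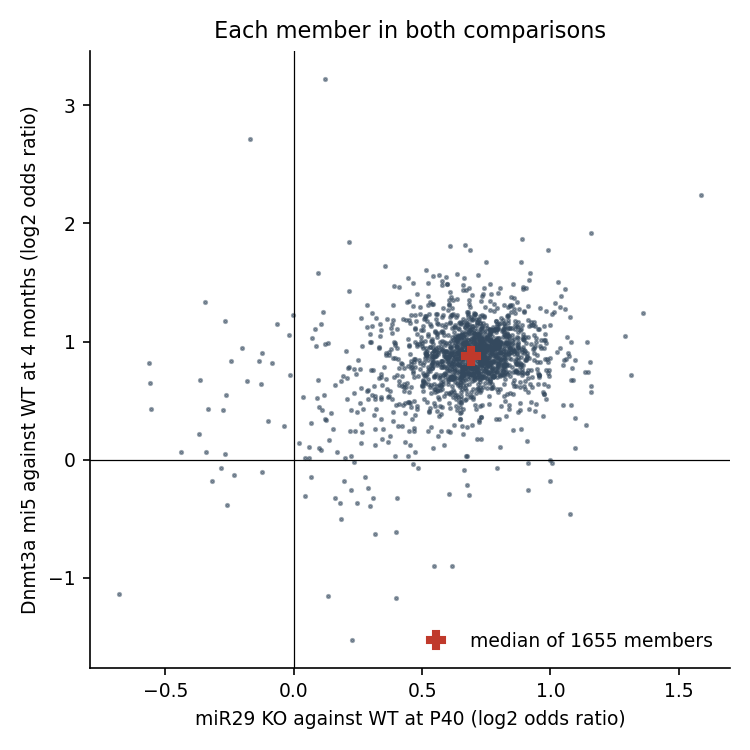
Each point is 1 of the 1655 noncoding genes, with its log2 odds ratio in the miR29 KO at P40 on the horizontal axis and in Dnmt3a mi5 at 4 months on the vertical axis; the cross is the median of both, 0.69 and 0.87. Of the members, 1588 lie to the upper right of the zero lines, above 0 in both.

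The members of smallest p for that difference show how far single genes strayed, though none passed after adjustment (adjusted p = 0.998, limma-moderated model). 1700123L14Rik (NR_003643), which overlaps Tafa1, stood at 3.72%, 1.94%, 2.61% and 1.78% in the wild type and 2.41%, 2.90%, 2.26% and 1.33% in the knockout, overlapping. At 4 months it stood at 0.574% and 0.342% in the wild type and 3.06% and 3.10% in the mutant (adjusted p = 0.00752, and 0.0803 without wild-type library 1). RefSeq typed 1700123L14Rik as a transcribed pseudogene, and its mean was 848 calls per library, so its low levels rest on few methylated calls. In the other direction, 4930517M08Rik (NR_130984), near Arid1b, a chromatin remodelling gene, stood at 2.79%, 2.90%, 2.78% and 2.95% in the wild type and 4.80%, 5.13%, 3.91% and 3.20% in the knockout. At 4 months the order of the groups was opposite, with 4.93% and 5.39% in the wild type and 4.64% and 4.05% in the mutant (adjusted p = 0.266). The other 4 of this kind were A430088P11Rik and 4933429O19Rik, larger in Dnmt3a mi5, and Gm10190 and 2010016I18Rik, larger in the knockout.

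A list of 15 noncoding genes with a known neighbour or product, chosen with earlier results of these data known, held 9 members. Of these 9, 7 rose in the knockout and 5 in Dnmt3a mi5, shares near the 76.4% and 58.8% of all genes. 2610307P16Rik (NR_045053), nearest to Sox4, a transcription factor gene of neural progenitors, had a mean of 243956 calls per library. It stood at 2.42%, 3.09%, 2.85% and 2.47% in the wild type and 5.04%, 4.69%, 4.37% and 3.46% in the knockout, and at 2.45% and 2.44% against 4.92% and 4.51% at 4 months. The groups did not overlap in either comparison (adjusted p = 5.75e-05 and 0.00303, limma-moderated model).

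2610035D17Rik, whose nearest NM gene is Slc39a11, and 9530026P05Rik, opposite to the metalloprotease gene Adamts9, were alike in level. 2610035D17Rik stood at 2.31% ± 0.21 in the wild type and 3.53% ± 0.467 in the knockout (SD, n = 4 each), and 9530026P05Rik at 2.34% ± 0.269 and 3.85% ± 0.56. Both also rose at 4 months, from 2.32% to 3.99% and from 2.22% to 3.91% as means of 2 libraries. B230216N24Rik, on the same strand as Pam, the gene of a peptide-amidating enzyme, stood lower, at 1.23%, 1.22%, 1.38% and 1.26% in the wild type and 2.39%, 2.23%, 2.30% and 1.90% in the knockout. At 4 months it stood at 1.20% and 1.86% in the wild type and 2.83% and 2.60% in the mutant. It rose in both (adjusted p = 0.00012 and 0.00467, limma-moderated model); at 4 months it no longer passed without wild-type library 1 (adjusted p = 0.0970).

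A830082K12Rik (NR_045195), opposite to Nr2f1, a transcription factor gene of cortical patterning, stood at 1.15%, 1.12%, 1.01% and 0.828% in the wild type and 1.72%, 1.32%, 1.57% and 1.18% in the knockout. It rose at P40 (adjusted p = 0.0104, limma-moderated model) and at 4 months, from 1.13% and 1.66% to 2.35% and 1.99% (adjusted p = 0.0333). The latter was not called without wild-type library 1 or without mi5 library 1 (adjusted p = 0.298 and 0.194).

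C130071C03Rik and F630028O10Rik, members of the list that overlap microRNA genes, differed from each other. C130071C03Rik (NR_015561) overlaps Mir9-2, a source of the neural microRNA miR-9, and its nearest NM gene is Mef2c, an activity-regulated transcription factor gene. It stood at 0.196%, 0.256%, 0.246% and 0.416% in the wild type and 0.438%, 0.367%, 0.209% and 0.209% in the knockout (adjusted p = 0.830, limma-moderated model), and at 0.248% and 0.138% against 0.451% and 0.430% at 4 months (adjusted p = 0.171). F630028O10Rik (NR_030718), which overlaps Mir223, the gene of a myeloid microRNA, stood at 1.27%, 1.23%, 1.38% and 1.42% in the wild type and 3.08%, 2.03%, 2.08% and 2.15% in the knockout. The groups did not overlap (adjusted p = 0.00563); at 4 months its values were 0.838% and 0.823% against 0.910% and 1.82% (adjusted p = 0.335). Also in the list, C130021I20Rik, opposite to Lmx1b, a transcription factor gene of midbrain and hindbrain neurons, was among the 5 lowest members described above.

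In all, 42 members overlap an annotated microRNA or snoRNA gene, with a median of 1.61% in the wild type at P40 and 2.52% in the knockout; 32 rose in the knockout (76.2%, against 76.4% of all genes) and 27 in Dnmt3a mi5 (64.3%, against 58.8%). The following were singled out after their values were seen. A230057D06Rik, which overlaps 7 Mir344 genes, stood at a mean of 0.564% in the wild type and 0.799% in the knockout on 131688 calls (adjusted p = 0.0141, limma-moderated model). Gm13648, over Mir200a, Mir200b and Mir429, rose from 1.08% to 2.12% at P40 (adjusted p = 0.000274). C430049B03Rik, over Mir322, Mir351 and Mir503, stood at 1.97% in the wild type and 1.81% in the knockout (adjusted p = 0.488).

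The 5 members with the most calls leave the least counting error. 5730522E02Rik (NR_027973), nearest to the kinase gene Vrk2, had 353165 calls per library and stood at 1.78%, 2.33%, 2.12% and 1.84% in the wild type and 3.60%, 3.31%, 3.11% and 2.39% in the knockout. Even at this depth the knockout libraries ranged over more than the wild-type libraries, with SDs of 0.518 and 0.257. At 4 months it stood at 1.82% and 1.79% in the wild type and 3.33% and 3.44% in the mutant. Gm20754, nearest to Slitrk3, a synaptic adhesion gene, had the lowest level of the 5, at 1.42% ± 0.168 in the wild type and 2.40% ± 0.451 in the knockout (SD, n = 4 each). 6530403H02Rik and A930011G23Rik stood at 2.13% ± 0.247 and 2.38% ± 0.291 in the wild type and rose to 3.35% ± 0.483 and 3.58% ± 0.601 (SD, n = 4 each). With 2610307P16Rik, all 5 rose in both comparisons by the limma-moderated model, beside 56.8% of all genes. In the class with the most calls, 96.1% of members and 94.4% of NM genes rose in the knockout. In Dnmt3a mi5 92.4% and 85.9% did. Without wild-type library 1 at 4 months, 6530403H02Rik and A930011G23Rik no longer passed, with log2 odds ratios of 0.79 and 0.78. That fit leaves 1 wild-type library.

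**Figure D5:**
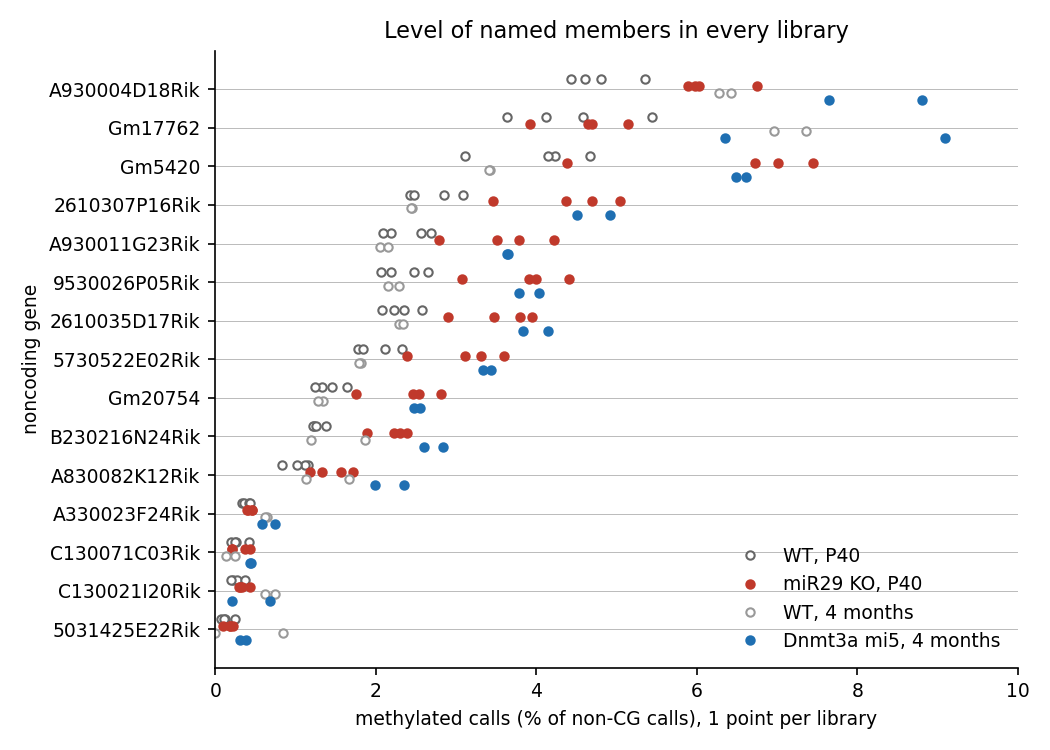
Each point is the mCH level of a named member in 1 library, open for wild type and filled for mutants, with the groups of P40 and 4 months on separate rows within a gene. The mutant points of 2610307P16Rik, 9530026P05Rik and Gm20754 lie above the wild-type points at both ages, whereas those of A330023F24Rik, C130021I20Rik and 5031425E22Rik overlap them and stay under 1%.

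Members whose nearest NM gene is a developmental transcription factor spread over much of the range. There were 55, with a median of 1.99% in the wild type at P40 and 3.28% in the knockout, and 42 rose at P40 (76.4%, the share of all genes) and 38 at 4 months (69.1%, against 58.8% of all genes). The lowest were C130021I20Rik at 0.264%, Gm20554, opposite to Irx2, at 0.267%, Gm26688, opposite to Tfap2a, at 0.300%, and Gm53, near Hoxb9, at 0.398%. At the upper end, 5930403L14Rik, on the same strand as Prdm16, stood at 3.35%. The genes in this paragraph other than C130021I20Rik were chosen after their values were seen.

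The minimum of 500 calls left the following members nearest to it. Just inside were Gm5334, 1700051A21Rik and Gm5547, with 500, 501 and 501 calls in their shallowest library. Their means were 1.90%, 2.52% and 1.78% in the wild type at P40, 2.45%, 4.41% and 3.68% in the knockout, and 1.84%, 5.06% and 3.19% in Dnmt3a mi5. Just outside were 4930596I21Rik, 2900005J15Rik and Gm6548, with 496, 494 and 492 calls. Their means were 2.52%, 2.13% and 0.878% in the wild type at P40, 3.80%, 2.25% and 2.07% in the knockout, and 6.67%, 3.84% and 0.751% in Dnmt3a mi5.

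Values by coverage of Y-linked genes stand beside the results above. Among libraries in which these genes were covered, the median member was 1.69 times higher in the knockout (3 against 3 libraries), and among those in which they were not it was 1.43 times higher (1 against 1). At 4 months the ratios were 1.84 and 1.87 (1 against 1 each).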

How the data were processed

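Per RefSeq transcript, each table the authors deposited holds a count of methylated calls outside CG, always whole, and a total treated as an expected count, since only 35.7% to 62.2% of totals are whole. BSMAP and mm9 are named in the submitters' processing notes; their versions and the making of the totals are "not given in the sources used here". Each total was rounded to a whole number, and the level is methylated over total calls. Of 36672 rows, 300 without a symbol and 1395 with repeated identifiers were left out. Symbols, types, neighbours and sequences came from RefSeq (GRCm38.p6), which is not the files' build; the coordinates printed are those of its sequences in that build, which otherwise served only to find neighbours and overlaps. Conversion rates of the lambda spike-in were not used here, so unconverted cytosines are part of each level.

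A quasi-binomial logistic model with 1 mean per group was fitted to each of 19826 genes over 12 libraries in Python 3.11.15, its dispersion (median 5.13) moderated with squeezeVar of limma 3.58.1 (trend, robust), with Benjamini-Hochberg adjustment over all genes. The script was tested on simulated data. All pairs of libraries within a group differed beyond counting noise, with a mean chi-square per gene of at least 2.73. The members and lists were chosen with earlier results of these data known. Named members were, per mutant, up to 8 rises and 4 falls of largest log2 odds ratio with libraries that do not overlap; the 5 highest, 5 lowest and 5 deepest; 3 of smallest p each way for the difference; the 9 members of a list, of which 1 is not reported here; and 3 at each side of the minimum. Alternatives were limma on log2(percent + 0.1), log2(percent + 0.5) or percent, subtraction of each library's 1st percentile, centring, other minimums, repeated identifiers, the transcript with fewest calls, a replicate block, each library left out, and subsets of members or libraries.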

Additional observations from a re-analysis of the deposited data

Results flagged for a closer look

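Of 96 groups of 4 libraries tested for a library far from the other 3, 7 were beyond Dixon's 95% critical value, and chance gives about 1 in 20. In the knockout at P40, library 1 stood highest and apart for 1700028J19Rik (4.74%, the others 3.61% to 3.74%), F630028O10Rik (3.08%, the others 2.03% to 2.15%) and Gm10190 (5.06%, the others 3.08% to 3.28%). Knockout library 2 stood highest for A930004D18Rik, at 6.74% against 5.90% to 6.03%. In the wild type at P40, library 3 stood highest for 4933401H06Rik (2.55%, the others 1.70% to 1.81%), library 2 for A430088P11Rik (3.46%, the others 2.05% to 2.20%), and library 1 lowest for 4931406H21Rik (1.35%, the others 1.74% to 1.81%). Without knockout library 1, 1700028J19Rik, F630028O10Rik and Gm10190 were still higher in the knockout, with adjusted p of 0.00855, 0.0267 and 0.0313 by the limma-moderated model.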

How the results depend on the processing

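Centring each library on its median gene's level left 14 members higher and 19 lower at P40, beside 200 and 711 of all genes. At 4 months it left 0 and 1, beside 0 and 7 of all genes. Centring took the members' median log2 odds ratio from 0.69 to 0.00508 at P40 and from 0.87 to 0.00212 at 4 months. Under it, these log2 odds ratios of named members that had risen, and of Gm17762, which had not passed, turned negative: at P40 2310015D24Rik (-0.0358), 2610035D17Rik (-0.0478), 4930517M08Rik (-0.0739), 4933429O19Rik (-0.40), 5730522E02Rik (-0.0349), 6530403H02Rik (-0.00505), A830082K12Rik (-0.19), A930004D18Rik (-0.31), A930011G23Rik (-0.0714), Gm12530 (-0.14) and Gm17762 (-0.64), and at 4 months 2610035D17Rik (-0.0638), 6530403H02Rik (-0.0636), 9530026P05Rik (-0.0300), A830082K12Rik (-0.20), A930004D18Rik (-0.47), A930011G23Rik (-0.0533), B230216N24Rik (-0.0169) and Gm3002 (-0.0484). Of these, 4933429O19Rik (adjusted p = 0.0234) and Gm17762 (0.0271) passed as lower, by the limma-moderated model. Of the named members that had passed in neither direction, 10 turned negative at P40, Gm17762 among them, and 10 at 4 months. With only the libraries in which Y-linked genes were covered, the members' median log2 odds ratio at 4 months was 0.85. There 1 library faced 1, the spread came from P40, and far fewer members passed. Members that fell numbered 0 in the fit as reported; in the knockout 1 fell with moderation without a trend (an alternative added after seeing the data), with the 1st percentile subtracted and with no minimum of calls, and in Dnmt3a mi5 1 fell in each of the 3 limma fits and 2 with the 1st percentile subtracted. Leaving out each library in turn gave 1293 to 1439 rises in the knockout, 456 to 1233 in Dnmt3a mi5, 0 to 1 falls in each and 0 calls for the difference between mutants. The ratio to the NM reference in the wild type at P40 was 1.40 with pooled calls, 1.52 with at least 2000 calls, 1.70 for members without overlap, 1.78 with the 1st percentile subtracted, and 1.60 to 1.63 with each library left out (added after seeing the data). The cause of these changes was not tested. With the replicate block 1404 members rose in the knockout and 1177 in Dnmt3a mi5. Deviations from the group mean, correlated between same-numbered libraries, gave values from -0.09 to 0.11. At 4 months the 2 libraries of a group mirror each other, so both replicate numbers give -0.09. These correlations cannot show whether same-numbered libraries were paired, and the labels do not say. Depth limits the members with few calls, and 2 libraries a group limit the comparison at 4 months.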
